A study of Mus musculus with 20 samples.

Results

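Loss of *Mfn2* from β-cells was compared directly with loss of *Mfn1*, in RNA sequencing of whole mouse islets. The comparison took 9 of the 20 libraries of the series, 5 from β-Mfn2KO mice and 4 from β-Mfn1KO mice, chosen by their genotype labels and by no measured value. β-Mfn1KO mice carried loxP sites on both copies of *Mfn1* and β-Mfn2KO mice on both copies of *Mfn2*. Both groups also carried *Ins1*-Cre, a recombinase placed in the insulin 1 gene and active in β-cells, so the Cre allele was present on either side. The mice were 12 weeks old, with 3 female libraries and 1 male among the 4 of β-Mfn1KO and 2 female and 3 male among the 5 of β-Mfn2KO. The islets were cultured after isolation. The other cells of the islet keep both genes, so the knockout is partial in this RNA. Values from the 6 Ctrl libraries and the 5 β-Mfn1/2DKO libraries, which lack both genes in β-cells, are given beside some results. The labels call Ctrl wild type, while the study's methods pool mice with Cre alone and mice with loxP alleles alone. The labels name no animal for a library. The paper's figure legend counts 4 β-Mfn1KO and 5 β-Mfn2KO mice for the RNA sequencing, as many as the libraries here. The p-values measure the spread between these samples, which may in part be technical.

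Mitofusin 1 and mitofusin 2 are paralogous GTPases of the outer mitochondrial membrane. They tether neighbouring mitochondria and drive fusion of their outer membranes, and mitofusin 2 is also found at contacts with the endoplasmic reticulum. Fusion mixes the contents of mitochondria, among them mitochondrial DNA (mtDNA), which encodes core subunits of the respiratory chain on which glucose-stimulated insulin secretion depends.

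The β-Mfn1KO libraries held 15.7 to 16.7 M counts. The β-Mfn2KO libraries held 15.1 to 59.5 M, with replicates 4 and 5, both male, at 56.0 and 59.5 M, so that the spread of depth lies in 1 group. Levels are given as normalized counts, that is, counts brought to the mean effective library size with TMM factors. Fold changes and p come from the quasi-likelihood test of edgeR, and p was adjusted by Benjamini-Hochberg over 28632 genes. Called genes have an adjusted p under 0.05 together with a change of over 1.5-fold.

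Each library carried the loss that its label names. *Mfn1* mRNA (chr3:32529465-32579239, GRCm38, as are the positions that follow) stood at 770.4, 621, 631 and 674 normalized counts in β-Mfn1KO and at 1712, 1711, 1682.5, 1807 and 1693 in β-Mfn2KO. *Mfn2* mRNA (chr4:147873599-147904704) stood at 4399, 3869, 4607 and 4535 in β-Mfn1KO and at 1532, 1586, 1688, 1474 and 1607.5 in β-Mfn2KO. The groups did not overlap for either gene. *Mfn1* was 2.56-fold higher in β-Mfn2KO (log2 fold change 1.35, SE 0.11, adjusted p = 2.6e-07). *Mfn2* was 2.76-fold lower there (log2 fold change −1.47, SE 0.08, adjusted p = 3.9e-10). RNA from cells without Cre and RNA of recombined alleles, which lack only the part between the loxP sites, cannot be told apart in what remains.

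**Figure D1:**
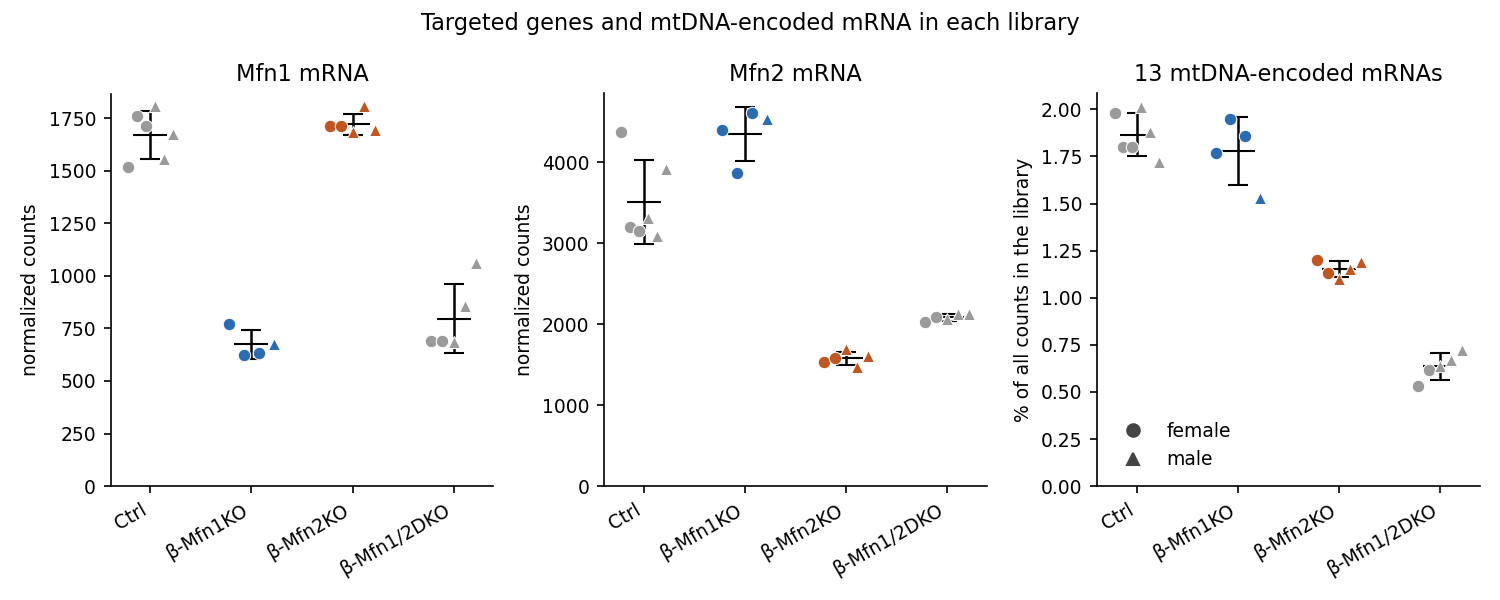
Each point is 1 library (circles female, triangles male, β-Mfn1KO blue, β-Mfn2KO orange, other groups grey), with the mean and SD of each group as black lines. The left and middle panels show normalized counts of *Mfn1* and *Mfn2*, and the right panel the percent of a library's counts that fall on the 13 mRNAs encoded by mtDNA, which ran from 1.53 to 1.95% in β-Mfn1KO and from 1.1 to 1.2% in β-Mfn2KO.

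Few genes passed the adjusted test between both knockouts in edgeR. Of 28632 genes, 50 were called (0.175%), 16 higher (0.0559%) and 34 lower (0.119%) in β-Mfn2KO, and 96 had an adjusted p under 0.05 (0.335%). Among the 50 called genes were both targets, 9 mRNAs encoded by mtDNA, 15 genes within 10 Mb of *Mfn2*, 3 within 10 Mb of *Mfn1* and 21 elsewhere. The libraries of both groups did not overlap for 49 of the 50. These genes were called on the same libraries, so little overlap follows from the calling, and the share over all genes is not given here. The median log2 fold change was 0.04 over all genes. The count at an adjusted p under 0.05 was 28 without β-Mfn1KO replicate 1, 668 without β-Mfn1KO replicate 3, 353 with the replicate number as a block, 282 after the filterByExpr filter and 835 with DESeq2. The number of calls also moved with single libraries. It was 106 without β-Mfn1KO replicate 3, and it was 25, 27 and 32 without β-Mfn1KO replicates 1, 2 and 4. It was 27 and 31 without β-Mfn2KO replicates 3 and 4, and 25 when both deep β-Mfn2KO libraries were left out.

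Messenger RNA encoded by mtDNA was lower in β-Mfn2KO than in β-Mfn1KO. The 13 mRNAs took up 1.77, 1.95, 1.86 and 1.53% of all counts in β-Mfn1KO and 1.2, 1.13, 1.1, 1.15 and 1.19% in β-Mfn2KO. The groups did not overlap, and the lowest share of β-Mfn1KO belonged to its only male library. The mean share was 1.78 ± 0.180% (SD, n = 4) in β-Mfn1KO and 1.15 ± 0.0438% (SD, n = 5) in β-Mfn2KO. The difference of −0.626 percentage points reached p = 0.0159 by exact permutation of the libraries (two-sided, 126 splits), the smallest p that these group sizes allow. The paper had reported lower mtDNA-encoded transcripts in β-Mfn2KO islets than in Ctrl, in knockout groups of the same sizes. The 13 mRNAs were thus a known family, and this p is not independent of that result. Within females the difference was −0.698 points (exact permutation p = 0.2, the smallest possible for 3 and 2 libraries), and within males it was −0.385 points, against a single β-Mfn1KO library. In bulk RNA, fewer cells of a type and less RNA per cell cannot be told apart for a single gene. Beside this difference, the β-cell genes *Ins1*, *Ins2* and *Mafa* had log2 fold changes of −0.12 (SE 0.15), −0.18 (SE 0.14) and 0.28 (SE 0.19).

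Of the 13 mRNAs, 10 had an adjusted p under 0.05, all 10 were lower in β-Mfn2KO, and 9 were called. The median log2 fold change of the 13 was −0.64. The difference was largest in size for *mt-Nd6*, a complex I subunit and the only protein gene on the light strand of mtDNA. *mt-Nd6* stood at 16026, 15999.8, 14904 and 14273 in β-Mfn1KO and at 7329, 7527.5, 6787, 8930.5 and 8113 in β-Mfn2KO. It was 1.98-fold lower in β-Mfn2KO (log2 fold change −0.98, SE 0.10, adjusted p = 6e-06), with every β-Mfn2KO library below every β-Mfn1KO library. The annotation overlaps its end with that of *mt-Nd5* on the other strand.

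The subunits of cytochrome c oxidase (complex IV) showed the same direction. *mt-Co3* stood at 79578, 93225, 67429.7 and 92727.5 in β-Mfn1KO and at 50296.5, 46391, 46696, 50244 and 46352 in β-Mfn2KO (log2 fold change −0.79, SE 0.11, adjusted p = 0.0007). *mt-Co2* and *mt-Co1* had log2 fold changes of −0.84 (SE 0.16, adjusted p = 0.02) and −0.62 (SE 0.10, adjusted p = 0.0069). For *mt-Co2* the adjusted p was 0.051 to 0.12 without β-Mfn1KO replicate 1, 2 or 4 or without β-Mfn2KO replicate 1, 2 or 3, over a range of 0.00013 to 0.29 in all 22 alternative fits.

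Among complex I subunits, *mt-Nd5*, *mt-Nd1*, *mt-Nd4* and *mt-Nd2* were lower, with log2 fold changes of −0.80, −0.67, −0.64 and −0.55. The groups came close for *mt-Nd5*, which stood at 54956 in β-Mfn1KO replicate 4 and at 40195 to 51036 in β-Mfn2KO. *mt-Nd2* missed the fold threshold, and the adjusted p of both *mt-Nd2* and *mt-Nd5* was above 0.05 without β-Mfn1KO replicate 1 or without replicate 2. *mt-Cytb*, the complex III subunit, and *mt-Atp6*, of the ATP synthase, had log2 fold changes of −0.67 and −0.60, with adjusted p of 0.0069 and 0.0051. With only the β-Mfn2KO libraries of like depth, 7 mRNAs had an adjusted p under 0.05. *mt-Nd4*, *mt-Nd5*, *mt-Co1* and *mt-Cytb* were then above it, and *mt-Nd3* was below it. The mt-Nd3 log2 fold change was −1.03 in that fit (SE 0.19, adjusted p = 0.028).

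The shortest mRNAs did not pass the test. The log2 fold change was −0.62 for *mt-Nd3* (SE 0.20, adjusted p = 0.18), −0.04 for *mt-Nd4l* (SE 0.37) and 0.09 for *mt-Atp8* (SE 0.23). In *mt-Nd4l* and *mt-Atp8* both deep β-Mfn2KO libraries were the highest of the 9. *mt-Atp8* was at 697.6 and 800.4 in these libraries and at 307.5 to 377.5 in the other 3 of β-Mfn2KO. With only the 3 β-Mfn2KO libraries of like depth its log2 fold change was −0.50. Both genes overlap longer neighbours of the same strand, *mt-Nd4* and *mt-Atp6*. Of the 75-base stretches of *mt-Nd4l* and *mt-Nd3*, 98.7% and 97.8% also occur in the nuclear copies *Gm10222* and *Gm28438*, so the counts of *mt-Nd4l* and *mt-Nd3* are uncertain.

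The ribosomal RNAs of mtDNA, the scaffold of the mitochondrial ribosome, did not pass the test. For *mt-Rnr1* the value was −0.20 on the log2 scale (SE 0.12, adjusted p = 0.49) and for *mt-Rnr2* −0.21 (SE 0.20, adjusted p = 0.69), and the groups overlapped for both. Whether the rRNAs moved less than the mRNAs was not tested.

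**Figure D2:**
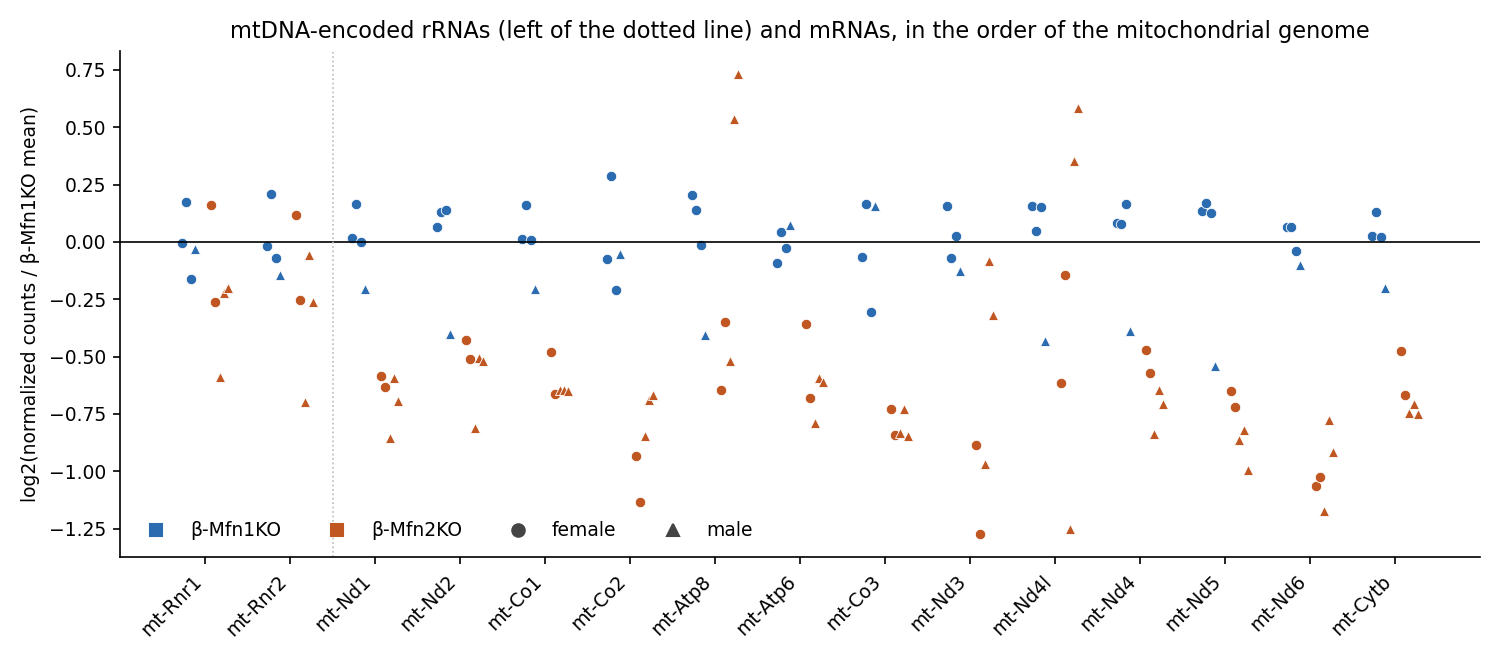
Each point is 1 library (β-Mfn1KO blue, β-Mfn2KO orange, circles female, triangles male), as log2 of its normalized counts over the β-Mfn1KO mean of that gene, with rRNAs on the left and mRNAs in genome order. For 10 of the 13 mRNAs all orange points lie below all blue points, while in mt-Atp8 and mt-Nd4l 2 orange triangles lie above the line. The share of all genes without such overlap is not given here.

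Reads of mtDNA can be split with nuclear copies of it. All 75-base stretches of *Gm28661* and *Gm28437*, which lie on chromosome 1, occur in *mt-Co2* and *mt-Co3*. These copies were called with the mtDNA genes, with log2 fold changes of −0.68 (SE 0.13, adjusted p = 0.02) and −0.75 (SE 0.16, adjusted p = 0.039, above 0.05 in 13 of 22 alternative fits). Added to its copy, *mt-Co2* stood at a mean of 103104 ± 13912 (SD, n = 4) in β-Mfn1KO and 61788 ± 8446 (SD, n = 5) in β-Mfn2KO, a log2 difference of −0.74. For *mt-Co3* with its copy the log2 difference was −0.77, and both had p = 0.0159 in exact permutation tests. With 6 such copies added, the share of counts differed by −0.731 points. Of the stretches of *mt-Atp6*, 99.5% occur in the copy *Gm10925*, and of those of *mt-Nd4* 61.5% occur in *Gm28439*. The single values of *mt-Atp6* and *mt-Nd4* are therefore also uncertain.

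Genes beside the targeted loci made up many of the other calls. Within 5 Mb of *Mfn2* on chromosome 4, 15 of 179 genes tested had an adjusted p under 0.05 (8.38%), and within 5 Mb of *Mfn1* on chromosome 3, 4 of 109 did (3.67%). Of the 28256 nuclear genes farther away, 65 did (0.23%). From 5 to 10 Mb there were 4 more beside *Mfn2* and 1 more beside *Mfn1*, and on the rest of chromosomes 4 and 3 there were 0 of 1216 and 2 of 1381. A loxP allele is bred together with the chromosome segment around it, so the loss of the targeted gene and the origin of the segment cannot be told apart in this contrast. The count near both targets was 19, and it was 10, 11, 33 and 10 without β-Mfn1KO replicates 1 to 4, 12 without β-Mfn2KO replicate 4 and 9 with like depth alone. The count of 65 farther away was 9, 13, 623 and 21 without β-Mfn1KO replicates 1 to 4, 17 without β-Mfn2KO replicate 4, 24 with like depth, 312 with the replicate number as a block, 242 after the filterByExpr filter and 785 with DESeq2, where 37 passed near the targets.

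**Figure D3:**
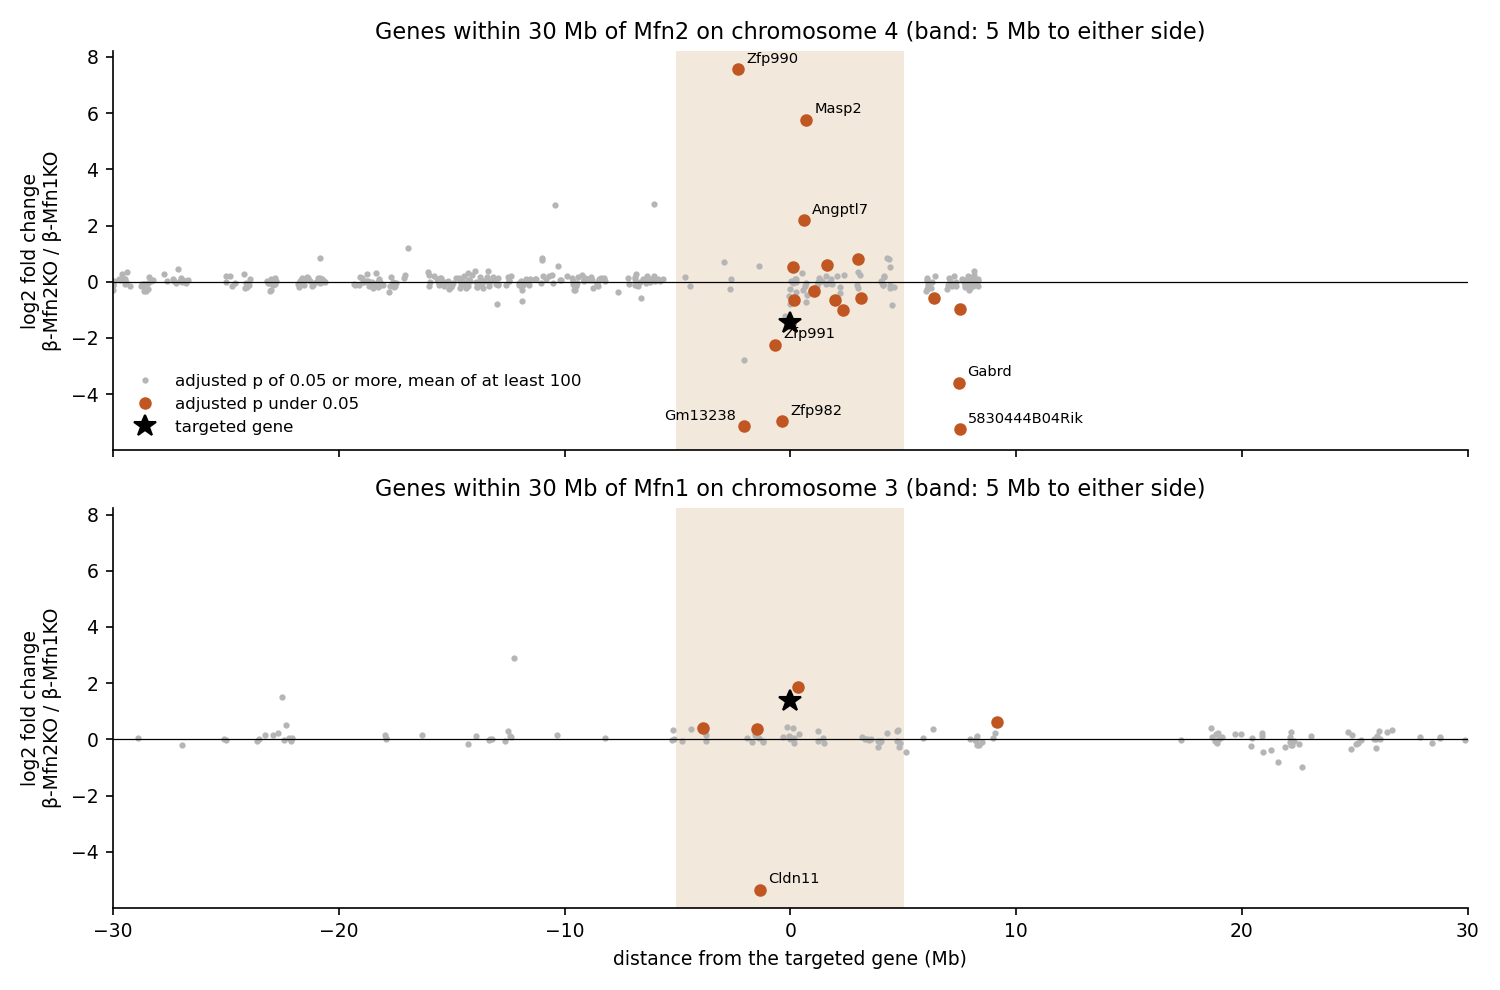
Each point is a gene, at its distance in Mb from *Mfn2* (upper panel) or *Mfn1* (lower panel) and its log2 fold change in β-Mfn2KO over β-Mfn1KO. Orange points have an adjusted p under 0.05, grey points do not and have a mean of at least 100 normalized counts, stars are the targets, and the band spans 5 Mb to either side, with chromosome 4 ending to the right of the *Mfn2* band. The largest values, of Zfp990 and Masp2, rest on 2 counts each in all β-Mfn1KO libraries together.

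Genes of zinc finger proteins lie before *Mfn2*, and those named by the rule differed in both directions. *Zfp990*, 2.33 Mb away (chr4:145510759-145539188), had 2 counts in all β-Mfn1KO libraries together and 223 to 354 normalized counts in β-Mfn2KO, a ratio of 232.8 with an exact 95% interval of 64.3 to 1925 from counting error alone (adjusted p = 0.00029). *Zfp991* went the other way, at 583, 638, 606 and 468.5 in β-Mfn1KO and at 109.0 to 138.0 in β-Mfn2KO (log2 fold change −2.24, SE 0.36, adjusted p = 0.0056). *Zfp982* stood at 72.6 to 85.2 in β-Mfn1KO and at 1.32 to 4.47 in β-Mfn2KO (adjusted p = 0.0095). *Zfp991* shares 75.9% of its 75-base stretches with other genes, so its counts are uncertain.

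The nearest neighbour of *Mfn2* also differed. *Miip* (chr4:147860778-147868816), which encodes an inhibitor of cell migration, stood at 435.5, 409.7, 432 and 396 in β-Mfn1KO and at 178, 118, 143, 141 and 173 in β-Mfn2KO. It was 2.77-fold lower in β-Mfn2KO (log2 fold change −1.47, SE 0.20, adjusted p = 0.00081). *Agtrap*, the angiotensin receptor-associated protein gene, *Vamp3*, which encodes a SNARE of vesicle fusion, and *Spsb1* were lower with log2 fold changes of −0.65, −0.57 and −0.66. *Clcn6*, a chloride transporter gene of endosomes, *Camta1* and *Ctnnbip1*, an inhibitor of β-catenin, were higher with 0.53, 0.82 and 0.58. *Camta1* overlaps *Vamp3* on the same strand. In the 22 alternative fits the adjusted p of *Spsb1* was above 0.05 in 14, of *Ctnnbip1* in 12, of *Clcn6* in 6, of *Camta1* in 5, of *Agtrap* in 2 and of *Vamp3* in 1. *Spsb1* and *Ctnnbip1* were above it without β-Mfn1KO replicate 1, 2 or 4 and without β-Mfn2KO replicate 1, 3 or 4, *Camta1* without β-Mfn1KO replicate 1 and *Clcn6* without replicate 2 or 4.

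*Angptl7*, which encodes a secreted angiopoietin-like protein, stood at 399, 489, 365 and 535 in β-Mfn1KO and at 2195, 2591, 1752.5, 2286 and 1436 in β-Mfn2KO. It was 4.59-fold higher in β-Mfn2KO (log2 fold change 2.20, SE 0.42, adjusted p = 0.02), and its adjusted p was above 0.05 without β-Mfn1KO replicate 1, 2 or 4. It lies inside *Mtor* on the opposite strand, and whether reads were counted by strand is not given in the sources used here. *Masp2*, a complement protease gene, had 2 counts in all of β-Mfn1KO and 40.4 to 98.7 normalized counts in β-Mfn2KO, but 51.4% of its 75-base stretches occur in *Tardbp* on the opposite strand.

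Beside *Mfn1*, the claudin gene *Cldn11* (chr3:31149920-31164324), a component of tight junctions, had the widest gap. It stood at 1929, 2084, 1324 and 1464 in β-Mfn1KO and at 53.6, 40.2, 40.4, 28.8 and 49.5 in β-Mfn2KO (40.8-fold lower, log2 fold change −5.35, SE 0.65, adjusted p = 0.00018). *Gm37459*, an antisense transcript within *Pex5l*, stood at 94.9 to 124 in β-Mfn1KO and 355 to 487 in β-Mfn2KO. *Tnik* and *Prkci*, both kinase genes, were higher in β-Mfn2KO with log2 fold changes of 0.40 and 0.37 (adjusted p = 0.035 each). Both were above 0.05 in 12 of 22 alternative fits, among them those without β-Mfn1KO replicate 1, 2 or 4 or without β-Mfn2KO replicate 2, 3 or 4.

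The libraries outside the contrast were placed beside both groups, as a description with no test. Over the 15 called genes within 10 Mb of *Mfn2*, Ctrl replicate 1 was nearer to the β-Mfn1KO mean for all 15 and Ctrl replicate 6 for 9. Ctrl replicates 2 to 5 were nearer to it for 0 to 2, and the β-Mfn1/2DKO libraries for 1 to 3. *Zfp991* stood at 677 in Ctrl replicate 1, at 386 in replicate 6 and at 114 to 147 in the other 4. *Cldn11* split the controls differently, at 1634, 71.9, 1069.7, 49.1, 956 and 766 in Ctrl replicates 1 to 6 and at 632 to 1162.5 in β-Mfn1/2DKO. For mtDNA mRNAs no such split appeared, and Ctrl libraries were nearer to β-Mfn1KO for 8 or 9 of the 9 called genes.

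The enolase genes, whose product turns 2-phosphoglycerate into phosphoenolpyruvate in glycolysis, moved in opposite directions. *Eno1* (chr4:150236721-150248879), 2.33 Mb from *Mfn2*, stood at 10487, 8177, 10083 and 11141 in β-Mfn1KO and at 4494, 4608, 5209, 4673 and 5961 in β-Mfn2KO. It was 2-fold lower in β-Mfn2KO (log2 fold change −1.0, SE 0.20, adjusted p = 0.027), and its adjusted p was above 0.05 without β-Mfn1KO replicate 1 or 4 or without β-Mfn2KO replicate 1, 2, 3 or 4. *Eno1b*, annotated on chromosome 18, stood at 14, 19.2, 14.9 and 33.3 in β-Mfn1KO and at 4643, 4811, 4843, 4461 and 3646 in β-Mfn2KO. It was 220.1-fold higher in β-Mfn2KO (log2 fold change 7.78, SE 0.91, adjusted p = 0.00013). The pseudogene *Gm4735* on chromosome 2 was 4.48-fold higher (log2 fold change 2.16, SE 0.37, adjusted p = 0.0091).

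These genes share sequence, and their sum differed by less than the spread between libraries. Of the 75-base stretches of *Eno1b*, 80.6% occur in other genes, 69.6% of all in *Eno1*, and 87.5% of those of *Gm4735* occur in *Eno1b*. Summed, the 3 genes stood at 10574, 8232, 10162.5 and 11224 in β-Mfn1KO and at 9355, 9603, 10391, 9419 and 9834 in β-Mfn2KO. The log2 difference of the sum was −0.04 (p = 0.714, two-sided exact permutation test), and the groups overlapped. In Ctrl, *Eno1b* stood at 29.1 in replicate 1, at 2450.0 in replicate 6 and at 4182 to 5821 in the other 4.

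**Figure D4:**
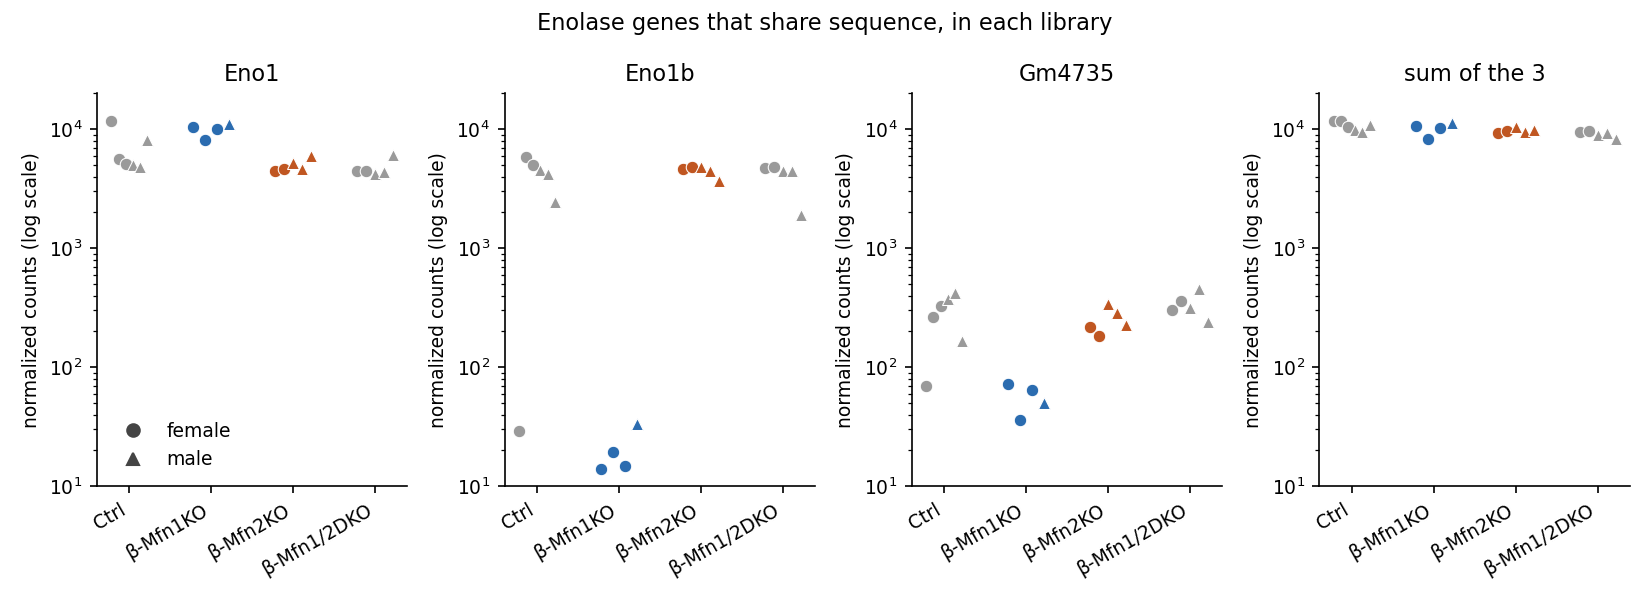
Normalized counts of Eno1, Eno1b, Gm4735 and their sum in every library, on log axes (circles female, triangles male, β-Mfn1KO blue, β-Mfn2KO orange, other groups grey). The β-Mfn1KO libraries and Ctrl replicate 1 hold 14 to 33.3 counts of Eno1b, and the sums of all groups lie between 8218 and 11775.

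Farther from both loci, 21 genes were called, among them the 2 nuclear copies of mtDNA, *Eno1b* and *Gm4735*. *Rab6b* on chromosome 9, a small GTPase gene of Golgi traffic, stood at 1412.5, 1303, 1639 and 1175 in β-Mfn1KO and at 76.2, 44.7, 110.4, 66.0 and 103.7 in β-Mfn2KO (17.1-fold lower, log2 fold change −4.10, SE 0.74, adjusted p = 0.012). In Ctrl it stood at 1494 in replicate 1 and at 42.5 to 218 in the others. The long non-coding transcript *Gm43305* on chromosome 14 was higher in β-Mfn2KO, at 1932 to 2269 against 291 to 757 in β-Mfn1KO (log2 fold change 1.98, SE 0.40, adjusted p = 0.035, above 0.05 in 11 of 22 alternative fits). Over 19 such genes, the nuclear copies left out, Ctrl replicate 1 was nearer to the β-Mfn1KO mean for 16, the other Ctrl libraries for 3 to 6 and the β-Mfn1/2DKO libraries for 2 or 3.

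*Pard6g*, a cell polarity gene, stood at 639, 627, 581 and 588 in β-Mfn1KO and at 945, 777, 988, 1014 and 1014 in β-Mfn2KO (log2 fold change 0.64, SE 0.10, adjusted p = 0.0044), with Ctrl at 593 to 810.2. *Reln*, which encodes the secreted protein reelin, stood at 72.6 to 88.0 in β-Mfn1KO and 149.5 to 205 in β-Mfn2KO, with Ctrl between them at 96.5 to 164. It was 2.24-fold higher in β-Mfn2KO (log2 fold change 1.17, SE 0.20, adjusted p = 0.0069). *Ephb6*, an Eph receptor gene, was 2.86-fold lower (log2 fold change −1.51, SE 0.28, adjusted p = 0.016).

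*Grin2c*, an NMDA receptor subunit gene, *Flrt1* and *Gm1043* were higher in β-Mfn2KO with log2 fold changes of 0.76, 0.60 and 0.62. *Dapl1*, the glycosyltransferase gene *B3gnt9*, *Rnf112*, a ubiquitin ligase gene, and the antisense transcripts *4930481A15Rik* and *Map2k3os* were lower with −1.17, −1.05, −0.59, −1.94 and −0.89. Their adjusted p lay between 0.03 and 0.045, and it was above 0.05 in 10 to 15 of 22 alternative fits for each of the 8. *4930481A15Rik* overlaps *Drap1* and *B3gnt9* overlaps *D230025D16Rik*, each on the opposite strand. *Ephb6*, *Rnf112* and the nuclear copies of mtDNA fall outside the rule for named genes and were chosen after their values were seen.

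The machinery of mitochondrial shape and contacts held 1 gene past the test beside the targets. Among 22 measured genes of fusion and fission, 1 had an adjusted p under 0.05, against 0.335% of all genes, and the median log2 fold change was −0.04. It was *Mtfp1*, a fission factor of the inner membrane, at 1027, 1034, 924 and 915 in β-Mfn1KO and at 759, 771, 727, 803 and 695 in β-Mfn2KO (log2 fold change −0.38, SE 0.07, adjusted p = 0.02), above 0.05 in 9 of 22 alternative fits, among them those without β-Mfn1KO replicate 1 or 2 or without β-Mfn2KO replicate 3 or 5. *Fis1*, an outer membrane fission factor, had −0.23 (adjusted p = 0.16) and *Dnm2* 0.17 (adjusted p = 0.25). *Opa1*, the inner membrane fusion GTPase, and *Dnm1l*, the fission GTPase, named after their values were seen, had 0.11 (adjusted p = 0.41) and 0.05 (adjusted p = 0.74). Of 27 genes of contacts between endoplasmic reticulum and mitochondria, which also include *Mtfp1*, no other passed. The median was −0.02, with 4 members each way at an unadjusted p under 0.05. Over all genes, 6.88% were higher and 6.16% lower at that threshold.

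Nuclear genes of the respiratory chain had log2 fold changes below 0 for most members, and none passed the adjusted test. For complex I, 49 of 51 had a log2 fold change below 0, with a median of −0.13 and a lowest value of −0.28. Summed, the 51 genes stood at 104960.4 to 124916 in β-Mfn1KO, at 97225 to 111860.0 in β-Mfn2KO and at 102689 to 109771 in Ctrl. Replicate 3 of β-Mfn1KO was its lowest and lay inside the β-Mfn2KO range, and it did so too for complexes II to V, the mitochondrial ribosome and protein import. At an unadjusted p under 0.05, 17 of the 51 were lower and 0 higher, against 6.16% lower and 6.88% higher over all genes. For complexes II to V, 17 of 61 were lower and 0 higher at that threshold, with the same median. The share over all genes is a low yardstick for well-expressed genes such as these. Of the 15267 genes kept by the filterByExpr filter and refitted, 3121 had an unadjusted p under 0.05 in either direction, against 3733 of all 28632. *Ndufc2*, a complex I subunit gene, had −0.27 (adjusted p = 0.085) and *Atp5g1*, which encodes subunit c of the ATP synthase, −0.47 (adjusted p = 0.083).

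The mitochondrial ribosome, which translates the mtDNA mRNAs, had a median of −0.12 over 78 genes. *Mrpl17* passed, at 2585, 2571, 2352 and 2675 in β-Mfn1KO and at 2045, 2037, 2016, 2089.7 and 2068 in β-Mfn2KO (log2 fold change −0.31, SE 0.06, adjusted p = 0.024). It was above 0.05 in 13 of 22 alternative fits, among them those without β-Mfn1KO replicate 1, 2 or 4 or without β-Mfn2KO replicate 1, 2, 3 or 4. At an unadjusted p under 0.05, 22 of the 78 were lower and 0 higher, against 6.16% lower and 6.88% higher over all genes. For protein import the counts were 12 lower and 2 higher of 32. Of 33 genes of mtDNA replication and transcription, 1 was lower and 3 higher at that threshold, with a median of −0.04 and 0 at an adjusted p under 0.05. Of 29 genes of mitochondrial RNA processing, 6 were lower and 2 higher, with a median of −0.05. Among 45 mitochondrial carriers, *Slc25a37*, which encodes the iron importer mitoferrin 1, passed (log2 fold change 0.39, SE 0.08, adjusted p = 0.047), and was above 0.05 in 16 of 22 alternative fits, among them those without β-Mfn1KO replicate 1, 2 or 4 or without β-Mfn2KO replicate 2, 3, 4 or 5, with an adjusted p of up to 0.69.

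**Figure D5:**
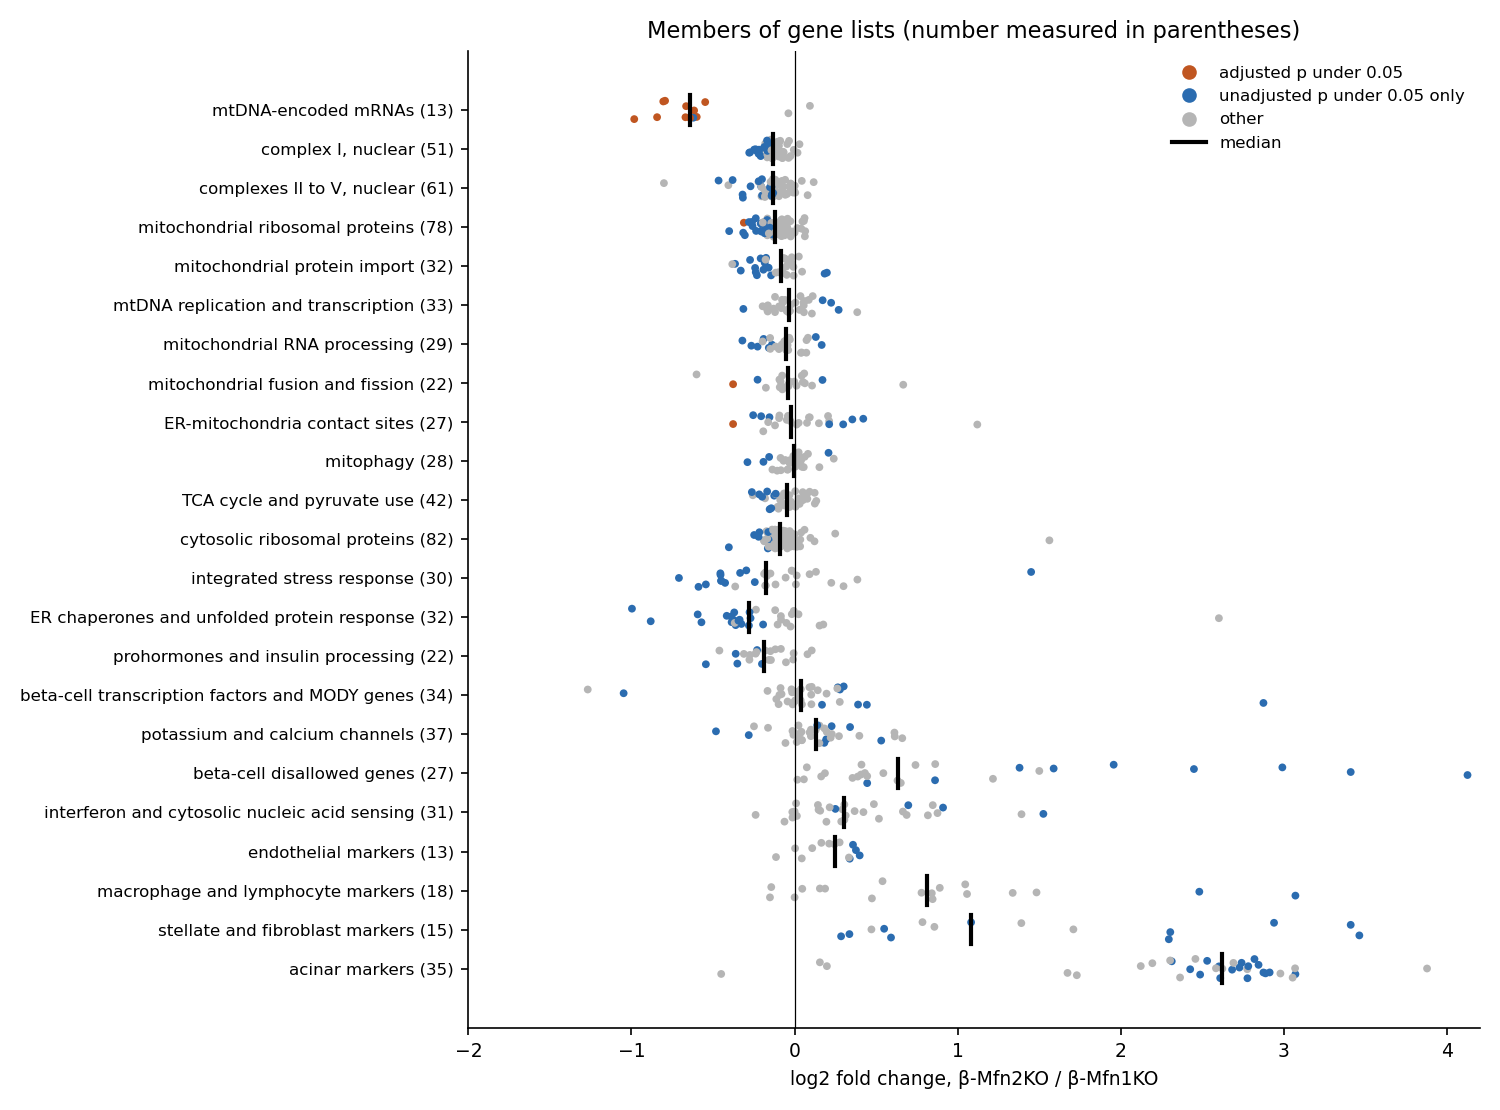
Each point is a measured member of a gene list, at its log2 fold change in β-Mfn2KO over β-Mfn1KO, and the black bar is the median of the list. Orange points have an adjusted p under 0.05, blue points an unadjusted p under 0.05 only, and grey points neither. The mtDNA-encoded mRNAs lie at a median of −0.64, the nuclear subunits of the respiratory chain at −0.13 and the acinar markers at 2.62.

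Chaperones of the endoplasmic reticulum and the unfolded protein response had a median of −0.28, with 18 of 32 lower and 0 higher at an unadjusted p under 0.05 and 0 at an adjusted p under 0.05. *Sdf2l1*, a chaperone cofactor, stood at 9951, 9514, 7378.5 and 7562 in β-Mfn1KO and at 5910.1, 6239, 3276, 4276 and 3661 in β-Mfn2KO (log2 fold change −0.88, SE 0.23, adjusted p = 0.089). *Creld2* had −0.59 (adjusted p = 0.079), and *Hspa5*, the chaperone BiP, −0.39 (adjusted p = 0.21). In the integrated stress response, 11 of 30 were lower and 1 higher at the unadjusted threshold, with a median of −0.18. *Atf4*, its transcription factor, had −0.24 (adjusted p = 0.34), and *Shmt2*, of mitochondrial one-carbon metabolism, −0.43 (adjusted p = 0.11). Without β-Mfn1KO replicate 3, 59 genes of all lists other than the mtDNA mRNAs passed the adjusted test, against 9 with it.

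Among 27 genes of the BCL2 family and p53 targets, 1 passed the adjusted test in each direction, against 0.126% of all genes higher and 0.210% lower. *Bad*, a pro-apoptotic BH3-only gene, stood at 1468, 1578, 1242 and 1469 in β-Mfn1KO and at 1219, 1123.5, 1144, 1156 and 1181 in β-Mfn2KO (log2 fold change −0.31, SE 0.06, adjusted p = 0.02), and it overlaps *Gpr137* on the opposite strand. *Bcl2l11*, which encodes BIM, stood at 826, 753, 909.0 and 898 in β-Mfn1KO and at 1109, 1101, 1098, 1095 and 1036 in β-Mfn2KO (log2 fold change 0.36, SE 0.08, adjusted p = 0.041). Each was above 0.05 in 12 of 22 alternative fits, among them those without β-Mfn1KO replicate 1, 2 or 4 or without β-Mfn2KO replicate 2, 3 or 4. Of the 27 genes, 3 were lower and 3 higher at an unadjusted p under 0.05, with a median of 0.01. Over all genes, 6.16% were lower and 6.88% higher at that threshold. Among the genes of smallest p that missed the fold threshold were also *Yif1b*, of traffic between endoplasmic reticulum and Golgi (log2 fold change −0.58), *Gmds*, of fucose synthesis (−0.37), *Cdpf1* (−0.41), *Ppp1r11* (−0.34) and *Pgghg* (−0.28, above 0.05 in 11 of 22 alternative fits).

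The β-cell programme and the islet hormones did not pass the test between both knockouts. The β-cell markers *Ins1*, *Ins2*, *Mafa*, *Slc2a2*, *Pdx1*, *Nkx6-1* and *Ucn3* were present in all 9 libraries, as the tissue label implies. *Ins1*, the locus that holds Cre in both groups, stood at 807733, 844389, 658270.5 and 960924 in β-Mfn1KO and at 844696, 730198, 715515, 827552 and 650437 in β-Mfn2KO (log2 fold change −0.12, SE 0.15, adjusted p = 0.75). *Ins2* had −0.18 (SE 0.14, adjusted p = 0.62), *Gcg*, the glucagon gene, −0.31 (SE 0.23, adjusted p = 0.58) and *Sst*, the somatostatin gene, −0.28 (SE 0.18, adjusted p = 0.53), with *Ins1* and *Sst* named after their values were seen. Of 34 β-cell transcription factors and genes of monogenic diabetes, 7 were higher and 1 lower at an unadjusted p under 0.05, with a median of 0.04. Over all genes, 6.88% were higher and 6.16% lower at that threshold. *Mafa* had 0.28 (adjusted p = 0.55) and *Rfx6* 0.30 (adjusted p = 0.15). Of 22 genes of prohormones and insulin processing, 20 were below 0, with a median of −0.19. At the unadjusted threshold 5 of the 22 were lower and 0 higher. Of 15 markers of alpha, delta and PP cells, 13 were below 0, with a median of −0.25, and 3 were lower and 1 higher at that threshold.

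Markers of acinar, stellate, endothelial and immune cells had positive log2 fold changes for most members, and none passed the adjusted test. Of 11 ductal markers 9 were above 0 and of 8 Schwann and neuronal markers 3, with medians of 0.18 and −0.25. The 35 acinar markers had a median log2 fold change of 2.62. At an unadjusted p under 0.05, 17 of them were higher and 0 lower, against 6.88% higher and 6.16% lower over all genes. Summed, they stood at 10948 to 47083 normalized counts in β-Mfn1KO and at 35381 to 485102 in β-Mfn2KO, where replicate 4 held the most. The lipase gene *Cel* stood at 148 to 1039.5 in β-Mfn1KO and at 1031.0 to 3525 in β-Mfn2KO other than replicate 4, which stood at 13773. The defining markers *Cpa1* and *Prss2* were above 0 in every library. For 15 stellate and fibroblast markers the sums were 7803 to 10458 and 9209 to 31355, with the highest in β-Mfn2KO replicate 5, and 10 were higher at the unadjusted threshold. Macrophage and lymphocyte markers summed to 6825 to 8782 and 6390 to 41269.6, again with replicate 5 highest, and 13 endothelial markers to 8168 to 8834 and 8515 to 11575. The part of these cells in the differences above was not tested. Acinar markers took 0.0249, 0.0594, 0.0566 and 0.107% of counts in β-Mfn1KO and 0.0877, 0.282, 0.087, 1.14 and 0.117% in β-Mfn2KO.

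Genes that mature β-cells keep low were above 0 in log2 fold change for all 27 members, with a median of 0.63. At an unadjusted p under 0.05, 9 were higher, against 6.88% higher over all genes, and 0 had an adjusted p under 0.05. *Ldha*, lactate dehydrogenase A, stood at 283 to 363 in β-Mfn1KO and at 268.0 to 545 in β-Mfn2KO replicates 1 to 4, while replicate 5 stood at 2366. *Cat*, the catalase gene, had 0.44 (adjusted p = 0.23). The macrophage marker *Lyz2* also stood highest in replicate 5, at 26334, and the part of such cells in these values was not tested.

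The sex of the mice was unequal between the groups, and sex-linked genes followed the labels. *Ddx3y*, on the Y chromosome, was at 0 in all 5 female libraries and at 3224 to 3507 in the 4 male ones. With sex as a covariate 41 genes were called, of which 36 were among the 50, and 10 mtDNA mRNAs passed. Whether the contrast differs between the sexes cannot be judged here, because β-Mfn1KO held a single male library.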

How the data were processed

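The authors trimmed paired-end reads of islet RNA with cutadapt 2.3, aligned them to GRCm38 with STAR 2.6.1b and deposited expected counts per gene from RSEM 1.3.1, with FastQC 0.11.8 and DESeq2 1.26.0 also in the submitters' processing notes. They also deposited a table of signal values, the counts divided by normalization factors from DESeq2, which served here only for 1 alternative. The expected counts were rounded to whole numbers. All 28632 genes of 20 libraries entered 1 model in edgeR 4.0.16 (R 4.3.3), with TMM scaling, a quasi-likelihood test of β-Mfn2KO minus β-Mfn1KO and Benjamini-Hochberg adjustment. Single values were compared by exact permutation in Python 3.11.15. Gene models and shared 75-base stretches came from GENCODE M21. The sequences of the targeted genes are not reported here. Intervals and floors of 3 counts cover counting error only. On simulated data, 96 of 100 genes changed by 1 on the log2 scale were called, 99 of 100 changed by 2, and 4 others, among 28632 genes. The changed genes averaged at least 100 counts, and smaller changes were not simulated. The simulated counts held no difference of sex or cell mixture and no outlying library, so these rates need not hold for the real libraries.

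Genes named were the targets, the mtDNA mRNAs, the called genes of largest change, 15 each way, whose normalized counts averaged 100 or more, the 10 of smallest p not called, list members with an adjusted p under 0.05 or among the 2 of smallest p or highest mean, and genes within 5 Mb of a target with an adjusted p under 0.05. The groups and gene lists were chosen with earlier results of these data known. Alternatives were another tool (DESeq2 1.42.0), scaling, filtering, covariates, subsets and each library left out in turn.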

Additional observations from a re-analysis of the deposited data

Results flagged for a closer look

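Single libraries stood apart from their group in 23 of 218 comparisons of 1 gene in 1 group, where the gap to the nearest library exceeded Dixon's 95% limit. Chance gives about 1 in 20 for independent values with a normal spread. Where all other libraries of the group are at 0, a single library above 0 is always flagged, so that rate does not apply. This holds for *Zfp990*, *Masp2* and *Gm49658* in β-Mfn1KO and for *Gm13238* and *Klhl1* in β-Mfn2KO. Many of the genes were also named for their values.

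Among mtDNA mRNAs, the male β-Mfn1KO replicate 4 was low for *mt-Nd2* (42828.0) and *mt-Nd5* (54955.7). In β-Mfn2KO, replicate 1 was high for *mt-Co1* (146672.0) and *mt-Cytb* (63648.5), and replicate 3 was low for *mt-Nd2* (32253.0).

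Near the targets, *Zfp990* was at 4.97 in β-Mfn1KO replicate 3 and *Masp2* at 5.58 in replicate 1, with the other 3 libraries at 0. *Spsb1* was low in β-Mfn1KO replicate 2 (973.4). In β-Mfn2KO, *Mfn1* was high in replicate 4 (1806.9), *Masp2* low (40.4) and *Vamp3* high (2406.7) in replicate 3, and *Gm13238* was at 0.66 in replicate 5 with the others at 0.

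Elsewhere, *Hist1h4m* was at 0 in β-Mfn1KO replicate 3, *Gm49658* at 2.75 in replicate 2 and *Rfx6* high in replicate 3 (4701.3). In β-Mfn2KO, *Dapl1* was low (64.6) and *Flrt1* high (1343.3) in replicate 3, *Klhl1* was at 2.82 in replicate 1 and *Bcl2l11* was low in replicate 5 (1036.2).

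Replicate 5 of β-Mfn2KO was high for *Ldha* (2366.3) and the macrophage marker *Lyz2* (26334.2), and replicate 4 for the acinar enzymes *Cel* (13773.3) and *Amy2a5* (120215.1). All values are normalized counts.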

How the results depend on the processing

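*Mfn1* and *Mfn2* stayed past the threshold in the same direction in all 22 alternative fits. The 50 called genes became 124 with DESeq2, 15 in females, 24 in males, 25 with like depth and 96 without the fold threshold, and 25 to 106 with 1 library left out. The 10 mtDNA mRNAs with an adjusted p under 0.05 became 6 in females, 2 in males and 7 with like depth, and 7 to 10 with 1 library left out. The difference in their share of counts was −0.698 points in females, −0.385 in males and −0.636 with like depth, where the exact permutation test could not reach 0.05, and −0.569 to −0.709 with 1 library left out. The 19 genes near the targets became 37 with DESeq2, 3 in females, 2 in males and 9 with like depth, and 10 to 33 with 1 library left out. The 9 list genes outside the mtDNA mRNAs became 77 with DESeq2, 5 with total-count scaling, 23 with the filterByExpr filter, 17 with only the 9 libraries fitted, 1 in females, 2 in males and 3 with like depth, and 3 to 59 with 1 library left out. The single-sex and like-depth fits hold fewer samples, and the cause of the other changes was not tested.

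Among single genes, *mt-Nd4l* turned to 0.02 with total-count scaling and 0.56 in males, and lay between −0.26 and 0.15 with 1 library left out. *mt-Atp8* turned to −0.08 with sex as covariate, −0.60 in females, −0.50 with like depth, −0.39 with the authors' factors and −0.51 with sex and depth class, and lay between −0.13 and 0.22 with 1 library left out. In females *Ins1* turned to 0.03 and *Lyz2* to −0.06. None of these had passed the test. Of 65 genes named with an adjusted p under 0.05, the targets left out, 0 changed direction. Only 2 of the 65 stayed under 0.05 in every alternative fit, and 16 did in every one but the single-sex fits. The alternatives reuse the same libraries, so a kept direction says little about how firm a gene is. The alternatives with the authors' factors and with sex and depth class, the 10 Mb window, the summed genes and the refits of the genes near the targets were added after the data were seen.

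With the replicate number as a block (replicate block), 87 genes were called, 33 list genes passed, *mt-Atp8* stood at −0.11 and the difference in share was −0.636 points (exact permutation p = 0.125 over 4 pairs, the smallest possible). The labels do not say what a number marks. Same-numbered libraries had deviation correlations of 0.27, 0.16, −0.1 and 0.4, and replicates 2 and 3 of β-Mfn1KO correlated more with another number, so the numbers were not taken as pairs.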

Other observations

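Other gene groups had no member past the adjusted test in edgeR. Over all genes, 6.88% were higher and 6.16% lower at an unadjusted p under 0.05. Among the 15267 genes kept by the filterByExpr filter and refitted, 3121 had an unadjusted p under 0.05 in either direction, against 3733 of all 28632 genes. The share over all genes is therefore a low yardstick for lists of well-expressed genes. Of 37 potassium and calcium channel genes, 6 were higher and 2 lower at an unadjusted p under 0.05, with a median log2 fold change of 0.13. Of 31 interferon and nucleic acid sensing genes, 4 were higher and 0 lower, with a median of 0.30. Of 20 cytosolic aminoacyl-tRNA synthetases, 8 were lower and 0 higher, with a median of −0.13. Of 82 cytosolic ribosomal protein genes, 8 were lower (9.76%) and 0 higher, with a median of −0.09. The 19 circadian clock genes held 0 at that threshold.

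Genes of very low counts were also called, and are named after their values were seen. *Hist1h4m* had 54 counts over the β-Mfn1KO libraries and 0 over β-Mfn2KO, at least 46.3-fold lower there against a floor of 3 counts over the group. It shares 89% of its 75-base stretches with *Hist1h4n*, so its counts are uncertain, and its adjusted p was above 0.05 in 13 of 20 alternative fits. *Gm15169* had 13 and 0 counts, at least 11.1-fold lower, with an adjusted p above 0.05 in 16 of 20 alternative fits.

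*Xist* stood at 190.2 normalized counts in β-Mfn2KO replicate 5, labelled male, at 2.77 to 8.08 in the other male libraries of both knockouts and at 35296.7 to 40925.0 in the female ones.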
